A study of Mus musculus with 6 samples.

Results

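Ciliated cells of the mouse airway surface epithelium were set against basal and club cells together, 2 arrays against 4, which are all 6 arrays of the study. The cells came from C57BL/6 mice; the labels give no other allele, no treatment and no age. All 3 populations were sorted by flow cytometry as EpCAM-positive epithelial cells. Ciliated cells were further gated as negative for the lectin GSIβ4 and positive for CD24, basal cells as positive for GSIβ4, and club cells, called secretory in the gating, as positive for SSEA1. These are gates on surface antigens, so each population may hold some cells of other types. A gene was taken to follow the contrast when both ciliated arrays lay above, or both lay below, all 4 basal and club arrays. Of 20315 genes, 3395 followed it upwards (16.7% of the genes) and 3045 downwards (15.0%). If cell type made no difference, a share of 0.0667 would be expected in each direction by the order of the arrays alone. Of the followers, 1583 upwards and 1511 downwards were not called by limma, the test used below. The median gap between the nearest ciliated and the nearest other array was 0.273 log2 units in the followers upwards and 0.206 downwards. The 2 arrays of each cell type are biological replicates by their labels, which name no animals, so the p-values measure the spread between these samples.

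Multiciliated cells carry many motile cilia that sweep mucus out of the airway. The shaft of each cilium, the axoneme, is built of microtubules with dynein motor arms, radial spokes and a central pair apparatus. It grows from a basal body by intraflagellar transport, in which kinesin and dynein motors move protein trains along the microtubules. The transcription factor Foxj1 and the RFX factors, which bind the X-box motif in promoters, switch on most genes of the motile cilium. Basal cells are the stem cells of this epithelium, club cells are secretory and can divide, and ciliated cells have left the cell cycle.

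Levels are RMA log2 values, so 1 unit is a 2-fold difference, and they are relative to the other genes of an array because RMA gives all arrays the same distribution of probe values. Per array, the median level of all genes lay between 6.79 and 6.92, and the lower quartile between 5.55 and 5.69. Over all genes, which do not replicate each other, the ciliated arrays correlated at 0.989 (Pearson), with 0.883 to 0.915 between ciliated and other arrays, and 0.936 to 0.953 between basal and club arrays. No detection calls were used, so no gene is called absent, and fewer cells of a type and less RNA per cell cannot be told apart in any result below. Probe sets of close relatives, such as tubulin genes or ribosomal protein genes and their pseudogenes, may share signal.

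The levels of 3 genes known from ciliated cells are given first. The contrast and the marker lists were chosen with earlier results of these data known, so these levels are no independent check of the label. Foxj1 stood at 11.14 and 10.31 on the ciliated arrays, at 7.63 and 7.84 on the basal arrays and at 7.80 and 7.89 on the club arrays. Cdhr4, a cadherin-related gene, stood at 13.48 and 13.49 on the ciliated arrays, at 6.39 and 6.51 on the basal arrays and at 7.23 and 7.32 on the club arrays. Sntn, the gene of the ciliary tip protein sentan, stood at 12.83 and 12.51 on the ciliated arrays, at 5.49 and 6.20 on the basal arrays and at 7.39 and 5.96 on the club arrays. In all 3 genes both ciliated arrays lay above the other 4, which did not come within 2.42 log2 units in Foxj1 and 6.16 in Cdhr4. All 20 listed markers of ciliated cells were called higher by limma. Their median level was 11.32 and 11.35 on the ciliated arrays, 6.04 and 6.21 on the basal arrays and 6.89 and 6.93 on the club arrays. Club arrays were slightly above basal arrays for these markers, by a median of 0.53, and 2 of the 20 passed that test.

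Markers of other cell types were looked at in the same arrays. The median level of 18 club markers was 10.97 and 11.76 on the ciliated arrays, against 12.91 and 13.45 on the club arrays and 9.81 and 9.90 on the basal arrays. The club secretoglobin gene Scgb1a1, named after its value was seen, was at 14.20 and 13.87 in ciliated, 14.31 and 13.98 in club and 13.05 and 13.02 in basal cells, so the ciliated and club arrays overlapped. Its part, and that of the other club markers, in the results below was not tested. For 18 basal markers the medians were 8.28 and 8.71 in ciliated, 8.78 and 9.28 in club and 11.28 and 11.48 in basal cells. None of 9 endothelial, 10 smooth muscle and chondrocyte or 4 erythroid and platelet markers was called. Of 15 tuft, neuroendocrine, ionocyte and alveolar markers, 1 was higher (6.67%) and 3 were lower in ciliated cells, against 9.28% and 9.03% of all genes. The higher share was below that of all genes and the lower share above it. Fewer of these markers were lower without either ciliated array. The higher member was the alveolar surfactant gene Sftpc, which stood at 9.18 and 8.36 on the ciliated arrays, at 5.21 and 5.27 on the basal arrays and at 5.27 and 5.47 on the club arrays (difference 3.46 ± 0.23, SE; limma adjusted p = 4.78e-05). The other alveolar surfactant gene on that list, Sftpb, was at 8.08 and 8.40 in ciliated, 10.39 and 10.98 in club and 7.85 and 7.89 in basal cells and was not called without either ciliated array. Whether alveolar cells contributed was not tested.

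The sequences shown next are promoter stretches of genes higher in ciliated cells that hold the X-box, the binding motif of RFX factors, and the share of promoters with that motif in the gene sets follows them. Each was taken from the RefSeq promoters of mouse assembly GRCm38.p6, which run from 250 bases before to 50 bases after a gene's start. They are written 5′ to 3′ on the strand of the gene. Capitals mark the 14 bases that match the motif on either strand, with 8 bases on each side.
Cfap206, chr4:34730208-34730237, minus strand: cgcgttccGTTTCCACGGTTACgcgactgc
Cfap61, chr2:145934768-145934797, plus strand: gccgcgtcGTTTCCTTAGCAACtgtgtgcg
Hydin, chr8:110266948-110266977, plus strand: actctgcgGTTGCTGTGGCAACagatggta
Kcnmb1, chr11:33963030-33963059, plus strand: tgacatctGTTTCCCAGGAGACtctgggaa
Tekt4, chr17:25471582-25471611, plus strand: tatacaatGTTCCTTAGGCAACcaggaacc
Tekt4, chr17:25471422-25471451, plus strand: ccccacctGTGTCCTGGGAAACaaactcat
Enkur, chr2:21205356-21205385, minus strand: tagcaactGTTTCCTTAGCAACcacgtggt
Zmynd10, chr9:107547296-107547325, plus strand: gctccctcGTTTCCATGGCGACgacgactc
Ccdc114, chr7:45924192-45924221, plus strand: ggccccttGTCTCCCCAGTAACcagactac

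Genes with such a window were ranked if named in the text or on a cilia list and called against both other types. The ranking passed over the genes of a single chromosome and matches within 8 bases of a promoter's end. Among the genes left, the 8 shown have the largest differences. They encode a radial spoke docking protein (Cfap206), a further radial spoke protein (Cfap61), a central pair protein (Hydin), a subunit of the calcium-activated potassium channel (Kcnmb1), a tektin (Tekt4), a microtubule inner protein (Enkur), a dynein assembly factor (Zmynd10) and a dynein docking protein (Ccdc114). The motif was searched as GTNNCC, any 2 bases and NGNAAC on both strands, and a promoter that held it more than once counted once. It stood in 123 of 1023 promoters of the genes that were high in ciliated cells and alike in basal and club cells, defined below. It stood in 470 of 19207 promoters of all matched genes (2.45%), and of 463 promoters of genes that were low in ciliated cells and alike in the others, 0.432% did. By list, 20.8% of 24 radial spoke and central pair promoters, 16.7% of 36 intraflagellar transport and BBSome promoters and 10.7% of 28 axonemal dynein promoters held it, against 0 of 47 ribosomal protein promoters. The forkhead motif GTAAACA, which Foxj1 and other forkhead factors can bind, stood in 3.32% of the promoters of the high genes, 3.67% of those of the low genes and 3.01% of all. Overlaps between the motifs were not removed. The median GC content of the promoters was 58.0% for the high genes, 60.7% for the low genes and 57.7% for all. A match describes letters in this window and does not show binding.

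Genes higher in ciliated cells moved much farther than genes lower in them. In limma, with the mean of basal and club cells as the reference and calls made at 0.05 after Benjamini-Hochberg adjustment, 1885 genes were higher (9.28%) and 1835 lower (9.03%). A difference of at least 2 log2 units was seen in 555 of the higher and 91 of the lower genes, and one of at least 4 in 153 and 0. The lower count was the less steady: leaving out ciliated replicate 1 gave 765 lower and 1241 higher genes, and leaving out ciliated replicate 2 gave 664 and 1130. The gap between the nearest ciliated and the nearest other array was wider than 2 units in 403 genes upwards and 9 downwards. The widest gaps were 6.16 upwards, in Cdhr4, and 2.53 downwards, in Ptges. At the edge of the rule among called genes, Nxph3 was just inside with a gap of 0.00418 and Fam217b just outside at -0.00043 on the higher side, and Erich1 was inside at 0.00072 and Wbscr27 outside at -0.00137 on the lower side.

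**Figure D1:**
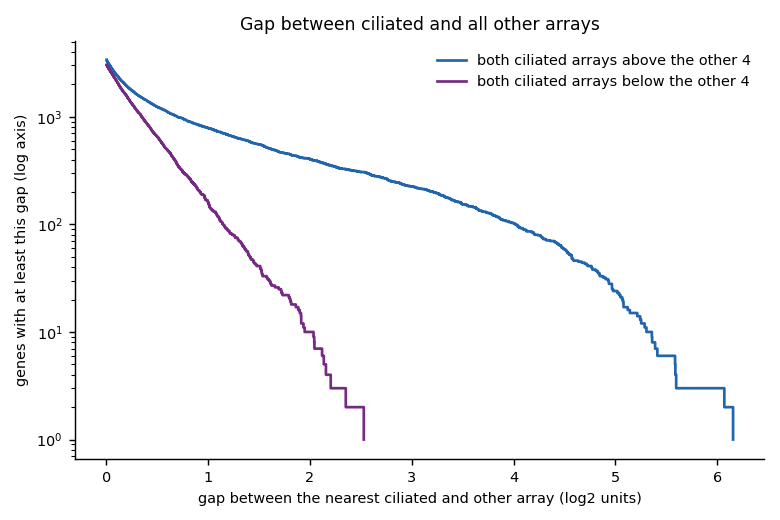
Number of genes (vertical axis, log scale) whose gap between the nearest ciliated and the nearest basal or club array is at least the value on the horizontal axis (log2 units), for genes above (blue) and below (purple) in ciliated cells. The blue line reaches 6.16 log2 units, and the purple line ends at 2.53.

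The mean of basal and club cells can move through 1 of them alone, so each was also compared with ciliated cells by itself. These comparisons share the ciliated arrays. Against both, 1278 genes were higher (6.29%) and 668 lower (3.29%) in ciliated cells. The lower count dropped to 285 with ciliated replicate 1 left out, to 196 with ciliated replicate 2, to 362 with club replicate 1 and to 397 with club replicate 2. The higher count was 849 without ciliated replicate 2. Among the 1885 higher genes, 333 passed against basal cells alone and 212 against club cells alone, and among the 1835 lower genes 627 and 463. Genes shared by basal and club cells were then defined as those called against both, outside all 4 other arrays, and with basal and club means within 0.5 log2 units of each other. By this definition 989 genes (4.87%) were high in ciliated cells and alike in the others, 389 of them by at least 2 log2 units. In the other direction 438 genes (2.16%) were low in ciliated cells and alike in the others, 20 of them by at least 2 units. When basal and club cells were fitted as 1 group, so that their difference counted as spread, the genes Mki67, Ube2c, Myc, Klf4, Fgfr1, Trp63, Dll1, Nectin1, Cldn10, Itgb5, Lamb3, Col17a1, Aqp3, Krt5, Dcn, Fbln1, Capg, Cyp2s1, Sqle, Fads2, Tgm2, Sftpb, Nme2, Cdk6, Cldn3, Msmo1, Lss, Fads1, Elovl6 and Acly, which other paragraphs describe, were not called. With that fit, 3 of the basal markers were lower, 2 of the tubulin genes, 3 of ribosome biogenesis, 6 of replication and mitosis, 5 of the epithelial transcription factors, 3 of the growth factor receptor list, 3 of the junction and 5 of the hemidesmosome list, 2 keratins, 0 actomyosin genes, 4 xenobiotic enzymes and 2 of lipid synthesis. The higher members were then 1 of the epithelial transcription factors, 3 of the Notch list (with 1 lower), 0 keratins, 1 xenobiotic enzyme and 3 of lipid synthesis. Ciliated cells lay between the others, called higher than basal and lower than club, in 52 genes, and the other way round in 19.

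**Figure D2:**
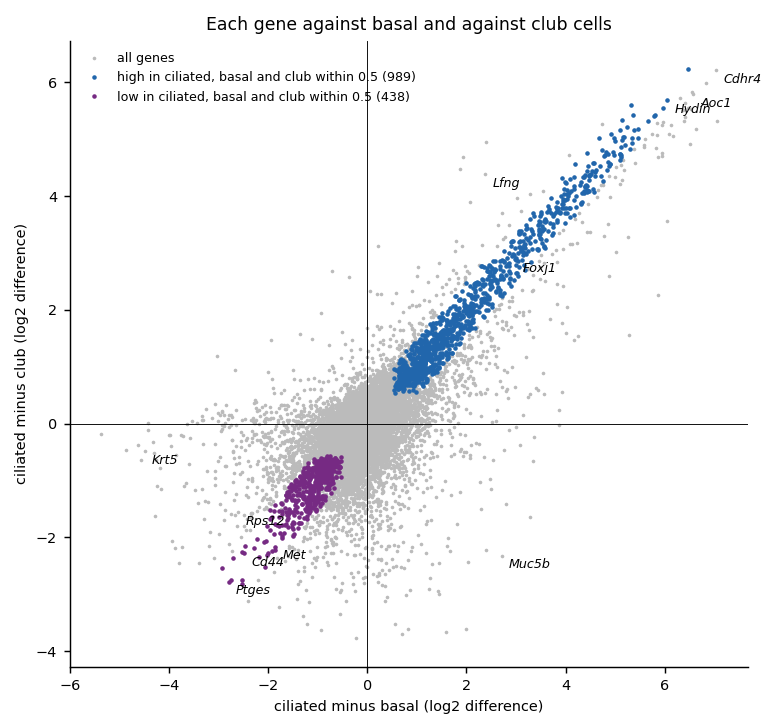
Each point is 1 of 20315 genes, by its difference from basal cells (horizontal axis) and from club cells (vertical axis), both log2. The 989 blue genes reach about as far from basal as from club cells, the 438 purple genes go no lower than -2.94, and away from the diagonal Krt5 lies below basal cells and Muc5b above basal and below club cells.

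With predicted gene models passed over, the 12 largest differences upwards included genes of the axoneme and genes outside it. Spag6l, a protein of the central pair, stood at 12.80 and 12.87 on the ciliated arrays, at 6.05 and 6.51 on the basal arrays and at 6.81 and 7.20 on the club arrays. The radial spoke head gene Rsph4a stood at 12.47 and 12.31 on the ciliated arrays, at 5.74 and 6.08 on the basal arrays and at 7.02 and 6.65 on the club arrays, and Dnah6, an inner-arm dynein heavy chain, stood at 11.99 and 11.80 on the ciliated arrays, at 5.26 and 5.78 on the basal arrays and at 6.44 and 6.31 on the club arrays. In each of them both ciliated arrays were over 5 units above the highest of the others, which was a club array. The differences were 6.19 ± 0.19 (SE; limma adjusted p = 2.12e-06), 6.02 ± 0.17 (adjusted p = 2.12e-06) and 5.95 ± 0.18 (adjusted p = 2.12e-06). Outside the axoneme, Aoc1, the diamine oxidase that degrades histamine, stood at 12.77 and 12.46 on the ciliated arrays, at 5.79 and 6.29 on the basal arrays and at 6.87 and 6.78 on the club arrays, a 72.6-fold difference (adjusted p = 2.12e-06). Agr3, of the protein disulfide isomerase family, stood at 11.83 and 11.42 on the ciliated arrays, at 4.07 and 5.07 on the basal arrays and at 6.35 and 6.26 on the club arrays (72.9-fold, adjusted p = 6.89e-06). Cdhr3, a cadherin-related gene whose human counterpart is a receptor for rhinovirus C, stood at 13.03 and 12.84 on the ciliated arrays, at 5.92 and 6.86 on the basal arrays and at 7.43 and 7.36 on the club arrays (65.8-fold, adjusted p = 5.13e-06). The basal arrays were the lowest in all 6 genes named here, and the ciliated arrays lay far above all others. Cdhr4 and Sntn, described above, led the ranking, and Tmem212, Fam216b, Cfap206 and Cfap61 completed it with differences of 5.90 to 6.03 log2 units.

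Among genes with like levels in basal and club cells, Hydin had the largest difference upwards once predicted gene models were passed over. This central pair gene stood at 12.14 and 12.14 on the ciliated arrays, at 5.81 and 6.36 on the basal arrays and at 6.36 and 6.55 on the club arrays (5.87 ± 0.18, adjusted p = 2.12e-06). The outer-arm dynein heavy chain Dnah9 was at 11.89 and 11.88 in ciliated cells and at 6.18 to 6.63 on the other 4 arrays (5.49 ± 0.13, adjusted p = 2.12e-06). Several of the next genes have roles outside the axoneme. Syt5, a synaptotagmin that senses calcium in vesicle fusion, was at 12.80 and 12.51 against 6.42 to 7.46, and Elmod1, an activator of GTP hydrolysis by Arf-family proteins, at 11.35 and 11.45 against 5.29 to 6.10. Kcnmb1, the channel subunit named above, was at 11.51 and 11.38 against 5.76 to 6.41. Timp4, an inhibitor of matrix metalloproteinases, was at 10.93 and 11.10 against 5.49 to 6.03. These 4 genes were 36.4- to 49.1-fold higher in ciliated cells (adjusted p at most 8.09e-06), and in each the ciliated arrays stood over 4 units above the rest. Pcp4l1, Adgb (androglobin), Cfap77, Dynlrb2 (a light chain of the transport dynein), Odf3b and Iqub made up the 12, with differences of 5.13 to 5.40.

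**Figure D3:**
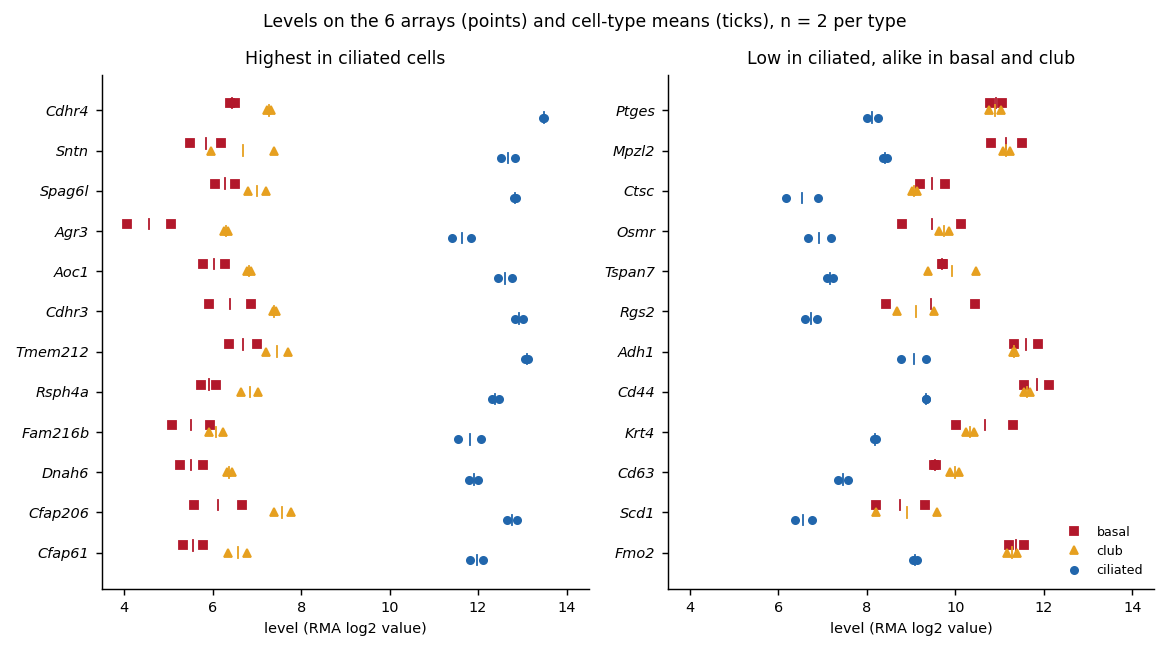
Levels (RMA log2 value, horizontal axis) of the 12 genes with the largest difference upwards (left) and of the 12 shared genes with the largest difference downwards (right). Predicted gene models were passed over. Points are arrays, ticks are means, n = 2 per cell type. On the left the ciliated arrays stand at 11.42 or above and the others at 7.77 or below; on the right basal and club points overlap or lie close together and the ciliated points lie to their left.

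The lists of cilium genes were higher almost throughout. Their uncalled members were picked for naming by their values. The counts are set beside the 9.28% of all genes called higher and the median difference of all genes, 0.003. Of 32 axonemal dynein and docking genes 30 were higher, with a median of 3.90. The 2 that were not called were Dnah8 (-0.003) and Dnah17 (0.03), heavy chains known from sperm. Of 27 radial spoke and central pair genes all were higher (median 4.33), with 5.70 for the central pair gene Cfap54. Of 25 tektins and microtubule inner proteins 24 were higher (median 3.34), Cfap52 by 5.23 ± 0.18 and Cfap161 by 4.93 ± 0.14, and the exception was the sperm tektin Tekt5 (0.11). Dynein assembly factors, the cytosolic chaperones that build the motor arms, were higher in 15 of 17 (median 2.64). Lrrc6 among them stood at 10.86 and 11.38 on the ciliated arrays, at 5.03 and 4.86 on the basal arrays and at 6.27 and 5.86 on the club arrays, and Zmynd10 stood at 10.89 and 11.16 on the ciliated arrays, at 6.41 and 6.20 on the basal arrays and at 6.30 and 7.36 on the club arrays. Both ciliated arrays were above the rest in both genes, and club replicate 2 was the highest other array for Zmynd10 (differences 5.62 ± 0.20 and 4.46 ± 0.28, adjusted p = 2.94e-06 and 3.8e-05). Pih1d1 (-0.48) and Pih1d3 (0.16) were not called. Leaving out any 1 array lowered these 4 counts by at most 1.

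The machinery that builds and gates the cilium was higher too, by less. Of 40 intraflagellar transport and BBSome genes 39 were higher, 34 of them at like levels in basal and club cells, and the median was 2.06. Ift88, a core protein of the transport trains, stood at 10.57 and 10.50 on the ciliated arrays, at 7.39 and 7.68 on the basal arrays and at 7.74 and 7.75 on the club arrays (2.90 ± 0.14, adjusted p = 1.09e-05). Ttc30b and Ttc26, of the same complex, were higher by 3.24 ± 0.23 and 3.06 ± 0.17, and Dync2li1, a light intermediate chain of the retrograde motor, by 2.83 ± 0.15. The member not called was Ttc21b, a retrograde transport gene, with a difference of -0.25. Of 34 transition zone and basal body genes 26 were higher and 8 were not called (median 1.81). Fam92b, which acts at the base of airway cilia, stood at 9.87 and 10.12 on the ciliated arrays, at 5.17 and 5.34 on the basal arrays and at 5.11 and 5.25 on the club arrays (4.77 ± 0.15, adjusted p = 2.12e-06). Tmem67, a membrane protein of the transition zone, was higher by 3.14 ± 0.14. The basal body genes Dzip1l and Dzip1 were higher by 3.42 ± 0.18 and 3.21 ± 0.17; for both the basal arrays stood above the club arrays.

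Regulators of multiciliogenesis and genes of centriole assembly gave a mixed picture: 12 of 26 were higher, 14 were not called and none was lower (median 0.50). The share higher was 46.2%, against 9.28% of all genes, and 9.03% of all genes were lower. Trp73, a transcription factor needed for multiciliated cells, stood at 9.18 and 9.70 on the ciliated arrays, at 6.62 and 6.71 on the basal arrays and at 6.03 and 6.28 on the club arrays (3.03 ± 0.18, adjusted p = 3.04e-05). Foxj1 differed by 2.94 ± 0.23 (adjusted p = 0.000129), and ciliated replicate 1 stood above ciliated replicate 2 in it. Myb, a regulator of early multiciliogenesis, stood at 10.85 and 11.14 on the ciliated arrays, at 8.76 and 8.83 on the basal arrays and at 8.57 and 8.47 on the club arrays (2.33 ± 0.14, adjusted p = 3.23e-05). All 3 factors separated the ciliated arrays from the rest. Ccdc78, a component of the deuterosome on which centrioles multiply, was higher by 2.81 ± 0.24. The X-box binding factor gene Rfx3 was at 9.92 and 10.14 in ciliated cells against 7.59 to 8.23 on the other arrays. Rfx2 was at 10.42 and 10.89 against 8.17 to 9.05, and both RFX genes were named after their values were seen. Mcidas, which starts the programme, also named after its value was seen, was at 7.67 and 7.54 in ciliated cells and 7.54 to 7.63 in the others, so the ciliated arrays overlapped with the rest.

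Tubulin genes and the enzymes that modify tubulin moved in both directions, 16 higher and 6 lower of 35 (median 0.20). These are 45.7% higher and 17.1% lower, against 9.28% and 9.03% of all genes. Tuba1a, an alpha tubulin, stood at 13.23 and 12.49 on the ciliated arrays, at 8.65 and 9.22 on the basal arrays and at 8.42 and 8.67 on the club arrays (4.12 ± 0.25, adjusted p = 3.2e-05). Glutamylation enzymes were among the higher members: Agbl2 and Agbl4, which trim glutamate side chains from tubulin, were higher by 4.11 ± 0.24 and 3.81 ± 0.23, and Ttll6, which lengthens them, by 3.35 ± 0.27. Tubb5, a beta tubulin of dividing cells named after its value was seen, stood at 9.12 and 8.71 on the ciliated arrays, at 10.78 and 11.78 on the basal arrays and at 10.53 and 10.57 on the club arrays (-2.001 ± 0.28, adjusted p = 0.0022). Its ciliated arrays lay below all others, and the 6 lower members became 2 without ciliated replicate 1 and 3 without ciliated replicate 2. Among planar cell polarity genes, which align cilia across the tissue, 5 of 18 were higher (27.8%) and 2 lower (11.1%). Of all genes 9.28% were higher and 9.03% lower, so the lower share was near that of all genes. The median difference of the list was 0.03. Prickle2 stood at 7.995 and 7.61 on the ciliated arrays, at 5.46 and 5.47 on the basal arrays and at 5.56 and 5.45 on the club arrays (2.32 ± 0.15, adjusted p = 4.99e-05). Intu and Wdpcp, effectors that also act in ciliogenesis, were higher by 2.31 ± 0.14 and 1.79 ± 0.13, while the atypical cadherin gene Celsr2 differed by -1.54 ± 0.15 (adjusted p = 0.000391).

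Enzymes that pass phosphate between nucleotides, and so supply ATP along the axoneme, were split by member. Of 20 adenylate, creatine and nucleoside diphosphate kinases 7 were higher, 1 lower and 12 not called (median 0.20). These are 35.0% higher and 5.0% lower, against 9.28% and 9.03% of all genes. The adenylate kinase gene Ak8 stood at 12.59 and 12.51 on the ciliated arrays, at 6.24 and 6.09 on the basal arrays and at 7.03 and 7.43 on the club arrays (5.85 ± 0.16, adjusted p = 2.12e-06). Ak7 followed with 5.35 ± 0.17, the nucleoside diphosphate kinase family gene Nme5 with 4.76 ± 0.20 and the brain-type creatine kinase gene Ckb with 3.53 ± 0.26. Each of these 4 had both ciliated arrays above the other 4. The lower member, named after its value was seen, was Nme2 (-0.99 ± 0.25, adjusted p = 0.0327), which was not called without ciliated replicate 1, ciliated replicate 2 or club replicate 2. Without basal replicate 1 the list had 4 lower members.

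**Figure D4:**
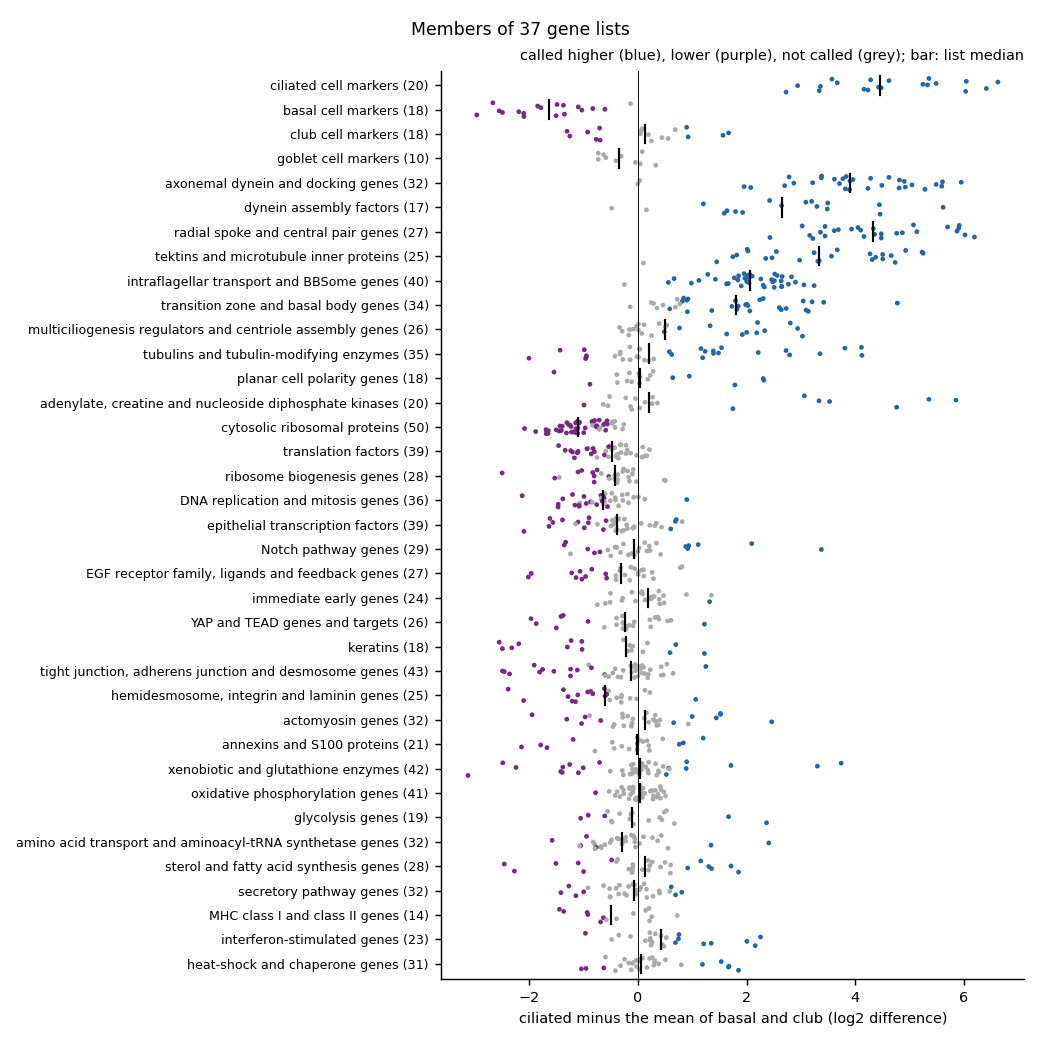
Differences of list members between ciliated cells and the mean of basal and club cells (log2, horizontal axis); each point is a gene, coloured by its limma call, the bar is the list's median and the number of measured members follows each name. The 6 lists from axonemal dyneins to the transition zone lie almost wholly to the right of 0, the ribosomal proteins to the left, and most other lists on both sides.

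Among genes low in ciliated cells and alike in basal and club cells, Ptges had the largest difference once predicted gene models were passed over. It also had the widest gap of all genes downwards. This gene, the inducible prostaglandin E synthase, stood at 8.24 and 7.999 on the ciliated arrays, at 10.79 and 11.05 on the basal arrays and at 10.77 and 11.03 on the club arrays (-2.79 ± 0.16, 6.92-fold lower; limma adjusted p = 2.28e-05). Mpzl2, an adhesion protein of epithelia, stood at 8.45 and 8.36 on the ciliated arrays, at 11.51 and 10.80 on the basal arrays and at 11.07 and 11.24 on the club arrays (-2.75 ± 0.21, adjusted p = 0.0001). Cd44, the hyaluronan receptor, stood at 9.34 and 9.35 on the ciliated arrays, at 12.12 and 11.56 on the basal arrays and at 11.68 and 11.55 on the club arrays (-2.38 ± 0.18, adjusted p = 0.000101). In all 3 the basal and club arrays overlapped, and both ciliated arrays lay over 2 units below the lowest of them. Ctsc, the lysosomal protease cathepsin C, was at 6.90 and 6.19 in ciliated cells and at 9.02 to 9.77 on the others, and Cd63, a tetraspanin of late endosomes, at 7.59 and 7.34 against 9.52 to 10.08. Tspan7, another tetraspanin, was at 7.25 and 7.10 against 9.38 to 10.48. Their differences were -2.74 ± 0.24, -2.30 ± 0.14 and -2.65 ± 0.28 (adjusted p at most 0.000576). The enzyme genes Adh1 (an alcohol dehydrogenase) and Fmo2 (a flavin monooxygenase) differed by -2.40 ± 0.22 and -2.24 ± 0.16, and the keratin gene Krt4 by -2.32 ± 0.32. Osmr, the oncostatin M receptor, differed by -2.68 ± 0.35, with basal replicates at 10.13 and 8.81. Rgs2, a brake on G-protein signals, and Scd1, a fatty acid desaturase, differed by -2.54 ± 0.51 and -2.27 ± 0.43, but neither was called when a ciliated array was left out (adjusted p = 0.0123 and 0.00937 with all arrays).

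The ranking of differences downwards passed over predicted gene models and genes that did not follow the rule. Of all genes called lower, 3 differed by at least 3 log2 units, among them a gene passed over here. The 3 largest differences in the ranking were in genes that were also graded between the other types. Ugt2b34, a glucuronosyltransferase, stood at 7.22 and 7.56 on the ciliated arrays, at 11.57 and 10.80 on the basal arrays and at 10.20 and 9.47 on the club arrays (-3.12 ± 0.28, 8.71-fold lower; adjusted p = 0.000254). P3h2, a prolyl hydroxylase of basement membrane collagens, stood at 6.96 and 7.27 on the ciliated arrays, at 11.44 and 10.56 on the basal arrays and at 9.43 and 9.19 on the club arrays (-3.04 ± 0.25, adjusted p = 0.000165). Pdpn, the basal cell glycoprotein podoplanin, stood at 8.28 and 8.07 on the ciliated arrays, at 11.73 and 12.11 on the basal arrays and at 10.16 and 10.53 on the club arrays (-2.96 ± 0.18, adjusted p = 3.08e-05). In these 3 genes the basal arrays were highest, the club arrays next and the ciliated arrays lowest, without overlap. Tgm2, the tissue transglutaminase, and Gdpd2, a phosphodiesterase of glycerol phosphodiesters, differed by -2.96 ± 0.14 and -2.93 ± 0.26. Sema3d, a secreted semaphorin, was at 6.57 and 5.68 in ciliated cells and at 8.17 to 9.41 on the others (-2.76 ± 0.30, adjusted p = 0.000616). Dgka, a diacylglycerol kinase, and Rapgefl1, an exchange-factor-like gene, differed by -2.73 ± 0.15 and -2.68 ± 0.14, with gaps of 2.16 and 2.04.

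Cytosolic ribosomal protein genes were lower in ciliated cells as a group. Of 50, 41 were called lower and none higher, with a median of -1.09, beside 9.03% of all genes called lower. Both ciliated arrays lay below all 4 others in 48 of the 50, against 15.0% of all genes, and 29 were lower against basal and club cells each. Rps12 stood at 9.34 and 8.90 on the ciliated arrays, at 11.69 and 11.77 on the basal arrays and at 10.68 and 10.68 on the club arrays (-2.08 ± 0.16, adjusted p = 0.000115). Rps28 stood at 9.91 and 9.79 on the ciliated arrays, at 12.04 and 12.11 on the basal arrays and at 11.17 and 11.59 on the club arrays (-1.88 ± 0.16, adjusted p = 0.000188). In both genes the order was basal, club, ciliated without overlap, and the median difference of club from basal cells over the list was -0.46, with 5 members passing that test. The median level of the list was 10.17 and 10.45 on the ciliated arrays, 11.19 and 11.42 on the club arrays and 11.73 and 11.81 on the basal arrays. The count of 41 became 24 without ciliated replicate 2 and 31 without its partner array. The median was -0.90 without ciliated replicate 2.

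**Figure D5:**
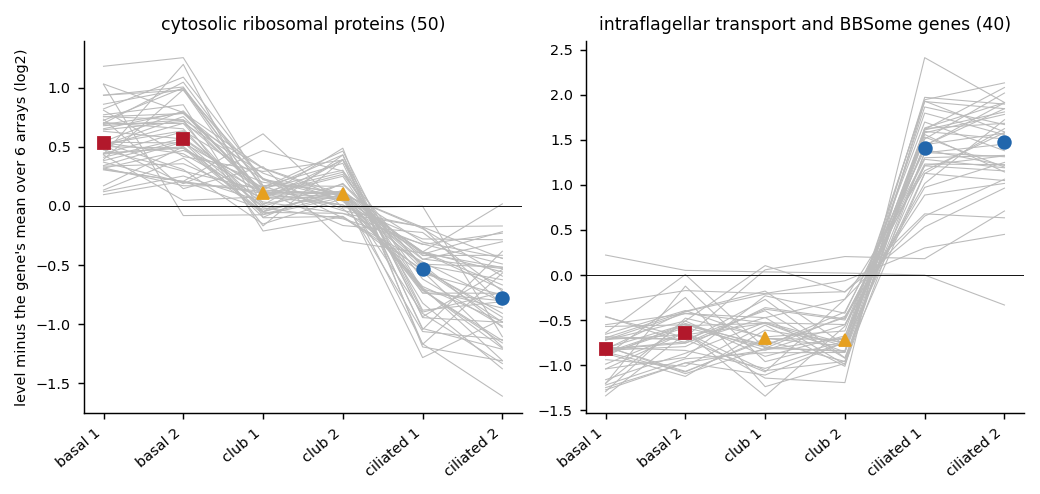
Each gene's level minus its mean over the 6 arrays (log2, vertical axis) by array, for 50 ribosomal protein genes (left) and 40 intraflagellar transport and BBSome genes (right); grey lines are genes and coloured points the list's median on an array. The ribosomal genes step down from basal to club to ciliated arrays, while the transport genes are level in basal and club arrays and rise in the ciliated arrays.

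Other genes of growth were lower in smaller numbers. Called lower were 33.3% of the translation factors, 32.1% of the ribosome biogenesis genes and 47.2% of the replication and mitosis genes. Of all genes 9.03% were called lower. Of 39 translation factors 13 were lower and none higher (median -0.48), among them the elongation factor gene Eef1b2 (-1.46 ± 0.30) and the initiation factor genes Eif3e (-1.34 ± 0.20), Eif3f (-1.23 ± 0.19) and Eif3k (-1.20 ± 0.16). The count was 8 and 7 without ciliated replicate 1 or 2 and 20 with quantile normalization applied again, and Eef1b2 and Eif3e were not called without ciliated replicate 1. Of 28 ribosome biogenesis genes 9 were lower and none higher (median -0.42), and 2 were lower without either ciliated array. Loess normalization gave 2 higher and 6 lower and the replicate block 1 higher and 10 lower. Myc, the growth transcription factor on that list, stood at 7.87 and 8.72 on the ciliated arrays, at 12.36 and 10.85 on the basal arrays and at 9.62 and 10.34 on the club arrays (-2.50 ± 0.44, adjusted p = 0.00712). Its basal arrays were the highest and its ciliated arrays the lowest, it was not called against club cells alone (adjusted p = 0.0711), and it was not called without ciliated replicate 1. Of 36 genes of DNA replication and mitosis 17 were lower and 1 higher (median -0.64), and 8 were lower without either ciliated array, 10 without club replicate 1 and 11 without club replicate 2. Mki67, the proliferation antigen, stood at 6.11 and 6.33 on the ciliated arrays, at 8.28 and 8.04 on the basal arrays and at 7.43 and 6.97 on the club arrays (-1.46 ± 0.18, adjusted p = 0.00118). Ube2c, Cdk2 and Ccnb2, which drive S phase or mitosis, differed by -1.47 ± 0.18, -1.38 ± 0.17 and -2.13 ± 0.40; Ccnb2 was not called without ciliated replicate 2. The higher member (2.78% of the list, against 9.28% of all genes) was Cdk6, a kinase of the G1 phase named after its value was seen. Cdk6 was at 10.07 and 10.63 in ciliated, 10.19 and 10.07 in club and 8.96 and 8.58 in basal cells, so ciliated and club arrays overlapped. It was not called without ciliated replicate 2 or club replicate 2.

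Of 27 genes of the EGF receptor family, its ligands, related receptors and feedback regulators 10 were lower, against 9.03% of all genes, 17 were not called and none was higher (median -0.32), and 6 were lower without either ciliated array. Without basal replicate 1, 3 were higher. Met, the receptor of hepatocyte growth factor, stood at 8.47 and 8.15 on the ciliated arrays, at 10.34 and 9.997 on the basal arrays and at 10.59 and 10.35 on the club arrays (-2.01 ± 0.17, adjusted p = 0.000198). Fgfr2, a fibroblast growth factor receptor, stood at 9.05 and 9.20 on the ciliated arrays, at 11.55 and 11.41 on the basal arrays and at 10.57 and 10.81 on the club arrays (-1.96 ± 0.14, adjusted p = 8.75e-05). The club arrays were the higher of the 2 other types for Met and the basal arrays for Fgfr2, and the ciliated arrays were below both types in each. Fgfr1 and the feedback inhibitor gene Spred1 differed by -1.22 ± 0.16 and -1.14 ± 0.14. Of 39 epithelial transcription factors 11 were lower and 3 higher (7.69%, against 9.28% of all genes), and 5 and 0 without either ciliated array. Cebpd, of the C/EBP family, stood at 7.60 and 7.49 on the ciliated arrays, at 9.19 and 8.89 on the basal arrays and at 9.26 and 9.33 on the club arrays (-1.62 ± 0.14, adjusted p = 0.000244). Gata6 was at 7.83 and 7.25 in ciliated cells against 8.74 to 9.58 on the others (-1.56 ± 0.20). Both factors had their ciliated arrays below all others, and for Cebpd basal and club arrays lay close together. Klf4 differed by -1.63 ± 0.38 (adjusted p = 0.0237) and was not called when any ciliated or club array was left out. Trp63, the basal cell factor, differed from basal cells by -3.99 ± 0.21 and from club cells by -0.20 ± 0.21 (adjusted p = 0.618).

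Notch signalling chooses between secretory and ciliated fates. Of 29 of its genes 6 were higher, 5 lower and 18 not called, that is 20.7% higher and 17.2% lower against 9.28% and 9.03% of all genes. Lfng, a glycosyltransferase that tunes Notch receptors, stood at 11.40 and 11.61 on the ciliated arrays, at 8.79 and 9.48 on the basal arrays and at 7.09 and 7.16 on the club arrays (3.38 ± 0.21, adjusted p = 3.29e-05). The ciliated arrays were highest, the basal arrays intermediate and the club arrays lowest, with no overlap. Dtx1, a Deltex ubiquitin ligase, stood at 9.23 and 9.36 on the ciliated arrays, at 6.86 and 7.30 on the basal arrays and at 7.21 and 7.42 on the club arrays (2.10 ± 0.17, adjusted p = 0.000142), while its relative Dtx4 differed by -1.35 ± 0.20 and was not called without ciliated replicate 2. The ligand gene Dll1 was at 6.59 and 6.69 in ciliated and 6.39 and 6.61 in club cells, which overlapped, and at 9.92 and 8.95 in basal cells. It differed from basal cells by -2.80 ± 0.30 and from club cells by 0.14 ± 0.30 (adjusted p = 0.823), and the difference from the mean (-1.33 ± 0.26) was not called without either ciliated array. Without ciliated replicate 1 the Notch list had 2 lower members, and without ciliated replicate 2 it had 2 higher and 0 lower.

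Genes that hold cells to each other and to the basement membrane were lower in part. Of 43 tight junction, adherens junction, gap junction and desmosome genes 12 were lower, 1 was higher and 30 were not called (median -0.12). These are 27.9% lower and 2.33% higher, against 9.03% and 9.28% of all genes. Gja1, a connexin gene, stood at 5.84 and 6.95 on the ciliated arrays, at 9.73 and 8.55 on the basal arrays and at 8.11 and 9.16 on the club arrays (-2.49 ± 0.45, adjusted p = 0.00798). Its ciliated arrays lay below all others, though the replicates lay over 1 unit apart in every type, and it was not called without ciliated replicate 1. Nectin1, an adhesion molecule, was at 6.92 and 6.78 in ciliated, 8.05 and 7.75 in club and 10.41 and 10.63 in basal cells (-2.36 ± 0.15). Cldn10, a claudin, was highest in club cells at 10.26 and 10.24, and at 7.98 and 7.12 in ciliated cells (-1.91 ± 0.23). The higher member was the claudin gene Cldn3, chosen after its value was known (1.25 ± 0.34, adjusted p = 0.0415), and it was not called without either ciliated array or club replicate 1, or with quantile normalization applied again. The lower junction count was 6 without either ciliated array, and the higher one 4 without basal replicate 1. Of 25 hemidesmosome, integrin and laminin genes 13 were lower and 1 higher (median -0.60), and 6 were lower without either ciliated array. Cd44 stands on this list, and the integrin gene Itgb5 differed by -1.28 ± 0.16. Lamb3 and Col17a1, anchoring proteins of basal cells, differed from basal cells by -3.998 ± 0.15 and -2.89 ± 0.15 and from club cells by -0.20 ± 0.15 and 0.16 ± 0.15 (adjusted p = 0.486 and 0.592).

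Beside 9.03% of all genes called lower stand 94.4% of the basal cell markers, 18.2% of the fibroblast markers and 44.4% of the keratins. Of 18 basal cell markers 17 were lower than the mean of basal and club cells, and the basal and club comparisons were far apart. The median difference was -3.10 against basal and -0.20 against club cells, and 4 were lower against both. Krt15, 1 of those 4, stood at 9.003 and 8.90 on the ciliated arrays, at 11.92 and 12.37 on the basal arrays and at 10.80 and 10.92 on the club arrays (-2.55 ± 0.17, adjusted p = 4.34e-05). Aqp3, a water and glycerol channel, was at 8.30 and 8.53 in ciliated, 9.66 and 9.47 in club and 12.55 and 12.62 in basal cells (-2.67 ± 0.14). Both had the order basal, club, ciliated. Krt5 was at 7.91 and 9.28 in ciliated and 8.89 and 9.27 in club cells, which overlapped, with 12.94 and 13.24 in basal cells. The count of 17 was 10 without ciliated replicate 1. Fibroblast markers were lower in 2 of 11: Dcn, a matrix proteoglycan, at 6.64 and 8.03 in ciliated, 7.98 and 7.61 in club and 12.30 and 12.13 in basal cells, and Fbln1 at 7.09 and 6.98, 6.68 and 6.66 and 9.17 and 9.50, which was not called without ciliated replicate 2. The median level of the 11 fibroblast markers was 6.21 and 6.21 on the basal arrays, 5.95 and 6.19 on the club arrays and 5.95 and 5.99 on the ciliated arrays, and their part in the basal genes was not tested. Among 18 keratins 8 were lower and 3 higher (16.7% higher, against 9.28% of all genes). The lower keratins numbered 3 without ciliated replicate 1, 4 without ciliated replicate 2 and 5 without club replicate 2, and the higher ones 0 without either ciliated array and 1 without club replicate 1 or with quantile or loess normalization.

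Of 32 contractile and cortical genes 6 were higher (18.8%) and 5 lower (15.6%), against 9.28% and 9.03% of all genes. Myl9, a myosin light chain, stood at 9.22 and 10.47 on the ciliated arrays, at 6.99 and 7.67 on the basal arrays and at 6.93 and 7.95 on the club arrays (2.46 ± 0.42, adjusted p = 0.00562), and was not called without ciliated replicate 2. Actn1, an actin crosslinker, was at 11.65 and 11.74 in ciliated cells against 9.73 to 10.56 on the others (1.52 ± 0.22, adjusted p = 0.00277), and Cald1, caldesmon, at 7.96 and 8.10 against 6.26 to 6.89 (1.52 ± 0.16). These 3 genes had both ciliated arrays above the rest. Of 10 smooth muscle and chondrocyte markers none was called, with medians of 6.32 and 6.46 on the ciliated, 6.26 and 6.29 on the basal and 6.15 and 6.36 on the club arrays. Both ciliated arrays lay above the rest in 2 of them, against 16.7% of all genes, and below the rest in 0. In Cnn1 they were at 6.71 and 7.49 against 5.92 to 6.57 on the others (0.77 ± 0.25, limma adjusted p = 0.0783). Whether muscle cells contributed was not tested. Capg, which caps actin filaments, stood at 7.55 and 7.74 on the ciliated arrays, at 9.79 and 10.80 on the basal arrays and at 8.71 and 9.06 on the club arrays (-1.95 ± 0.28, adjusted p = 0.00248). Its ciliated arrays were the lowest. Without ciliated replicate 2 the list had 3 higher and 2 lower members, and without ciliated replicate 1 it had 3 lower.

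Of 42 enzymes that handle foreign compounds 7 were higher and 10 lower, against 9.28% and 9.03% of all genes (median 0.05). Aldh3b1, an aldehyde dehydrogenase, stood at 12.93 and 13.10 on the ciliated arrays, at 7.70 and 8.57 on the basal arrays and at 10 and 10.82 on the club arrays (3.74 ± 0.30, adjusted p = 0.000141). Cyp2s1, a cytochrome P450, stood at 13.16 and 12.98 on the ciliated arrays, at 10.98 and 11.31 on the basal arrays and at 8.27 and 8.50 on the club arrays (3.30 ± 0.16, adjusted p = 1e-05). Both were highest in ciliated cells, but Aldh3b1 was lowest in basal and Cyp2s1 lowest in club cells. Aldh3a1, another aldehyde dehydrogenase, stood at 8.92 and 8.63 on the ciliated arrays, at 10.73 and 11.25 on the basal arrays and at 11.27 and 11.81 on the club arrays (-2.48 ± 0.22, adjusted p = 0.00024), so that its ciliated arrays were the lowest, as were those of Ugt2b34 and Fmo2. Without ciliated replicate 1 the list had 3 higher and 5 lower members, and without ciliated replicate 2 it had 3 and 6.

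Of 28 genes of sterol and fatty acid synthesis 6 were higher (21.4%, against 9.28% of all genes), 6 lower (21.4%, against 9.03%) and 16 not called. Sqle, the squalene epoxidase, stood at 10.13 and 9.74 on the ciliated arrays, at 7.17 and 7.19 on the basal arrays and at 9.22 and 8.74 on the club arrays (1.85 ± 0.19, adjusted p = 0.000475). Its order was ciliated, club, basal without overlap. Msmo1, Hmgcs1 and Lss, named after their values were seen, were also higher, by 1.36, 1.30 and 0.92. Fads2, a fatty acid desaturase, was at 7.05 and 7.23 in ciliated, 7.80 and 7.78 in club and 11.24 and 11.58 in basal cells (-2.46 ± 0.15), and Scd1 was described above. The other lower members, also named after their values were seen, were Fads1 (-1.51), Elovl6 (-1.10), Scd2 (-0.997) and Acly (-0.48). Without ciliated replicate 2 the list had 3 higher and 3 lower members, and without ciliated replicate 1 it had 5 and 3. Acly was not called without either ciliated array, Hmgcs1, Lss and Scd2 without ciliated replicate 2 and Elovl6 without ciliated replicate 1. Lss and Acly also lost the call without club replicate 1, and Acly without basal replicate 1 or club replicate 2, with loess normalization, with an intensity trend or with dim genes left out.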

How the data were processed

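RNA of 3 sorted cell types, 2 arrays each, was measured on microarrays. Total RNA was extracted with Trizol and biotin-labelled for Affymetrix arrays, per the labels' protocols. The submitters' processing notes name RMA, with no version; for the array platform and the build, nothing is given in the sources used. The deposited log2 values come per probe set (35556) and, in the authors' table, as 1 value per gene symbol and array. Each of its entries matched some probe set of its array to within 1e-06 log2 units. The 1 line without a symbol was left out, which left 20315 genes. A deposited score (per the file headers a z-score for each gene and type) entered no result. Another table of the authors holds 18 columns of samples not in this series, which were not used.

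The gene log2 values of all 6 arrays were fitted with 1 mean for each cell type in limma 3.58.1 (R 4.3.3), with no further normalization and no filter on dim genes. The empirical Bayes prior SD was 0.1877 (4.297 prior and 7.297 total degrees of freedom). Calls were made at 0.05 on limma p-values adjusted within a contrast over the whole table (Benjamini-Hochberg), and the text prints these adjusted values. The follow rule is a description without a test; 2 arrays against 4 cannot go below an exact permutation p of 0.0667. Differences are given ± SE of the fit, and the array values stand in place of an SD. The test was tried on simulated data with known changes. The number of arrays limits the precision. Named genes are the 12 largest differences, widest gaps and largest shared differences in each direction, and the 4 largest differences of each of 43 gene lists; predicted gene models were passed over in the rankings. The cells, rule and lists were chosen with earlier results of these data known. Of the gene names, 19535 were current RefSeq symbols (GRCm38.p6) and 605 synonyms, and 15616 genes had a promoter in the RefSeq table. Alternatives were further normalization, a filter on dim genes, basal and club as 1 group, a replicate block, other variance moderation, probe sets and leaving out each array.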

Additional observations from a re-analysis of the deposited data

How the results depend on the processing

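Each type has 2 arrays, which limits the precision. Leaving out each array in turn gave 1130 to 2128 genes higher and 664 to 2332 lower than the mean of basal and club cells, 849 to 1371 higher and 196 to 888 lower against both types, and 3751 to 5424 above and 3581 to 4934 below all other arrays, where fewer arrays had to be cleared. A minimum of 1 log2 unit left 1203 higher and 797 lower genes, and 966 and 323 against both types. With basal and club cells as 1 group, so that their difference counted as spread, 633 genes were lower and 1283 higher (67.0% of the called genes, against 50.7%). With dim genes left out, 1920 of the 3395 genes above all other arrays remained, because the filter only removes genes. Among probe sets, 4739 lay below and 4710 above. Other scalings put the share of higher among called genes between 46.3% and 56.1%. With the replicate number as a block there were 2106 higher and 2285 lower genes, and 1417 and 858 against both. Same-numbered arrays deviated together with correlations of 0.052 (basal and ciliated), 0.265 (basal and club) and 0.26 (ciliated and club), which leaves unsettled whether the numbers pair the samples. Of 2692 values of 194 named genes under these alternatives, 2548 stayed on their side of the threshold with their sign, 116 lost the call, 49 of them with basal and club as 1 group, and 24 gained it. The 4 that changed sign were differences near 0 in uncalled genes: Alas2 (-0.039 without ciliated replicate 2; -0.039 to 0.169 over the arrays left out), Pf4 (0.001 without basal replicate 2, 0.045 without ciliated replicate 2; -0.221 to 0.045) and Ppbp (0.017 without club replicate 1; -0.204 to 0.017). The median of the actomyosin list was -0.036 with quantile normalization applied again. The cause of these changes was not tested.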

Other observations

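Interferon-stimulated genes, which are switched on by antiviral signalling, were higher in ciliated cells in 8 of 23 and lower in 1 (median 0.43). These are 34.8% higher and 4.35% lower, against 9.28% and 9.03% of all genes. Usp18, a brake on interferon signalling, stood at 11.88 and 12.03 on the ciliated arrays, at 9.41 and 10.26 on the basal arrays and at 9.50 and 10.003 on the club arrays (2.16 ± 0.26, limma adjusted p = 0.00106). Ifit3 was at 9.32 and 9.25 against 6.13 to 7.57 on the other arrays (2.26 ± 0.24, adjusted p = 0.000581). Both separated the ciliated arrays from the rest. Oas2, a sensor of foreign RNA, was at 9.89 and 10.07 in ciliated and 9.39 and 9.33 in club cells and at 6.55 and 6.61 in basal cells, and its difference from club cells was 0.62 ± 0.15 (adjusted p = 0.0338). The lower member was the RNA sensor gene Ddx58, chosen after its value was known (-0.96 ± 0.15, adjusted p = 0.00366), and not called without ciliated replicate 2. Without ciliated replicate 2 the list had 4 higher and 0 lower members. Genes of antigen presentation were lower in 6 of 14 (42.9%, against 9.03% of all genes). H2-Aa was at 5.99 and 5.61 in ciliated, 5.77 and 5.39 in club and 9.20 and 8.28 in basal cells. It differed from club cells by 0.22 ± 0.31 (limma adjusted p = 0.73). The 15 leukocyte markers had median levels of 7.17 and 7.33 in basal, 6.09 and 6.18 in club and 6.12 and 6.25 in ciliated cells. They share H2-Aa, H2-Ab1, H2-Eb1 and Cd74 with the antigen presentation list, so their medians are no separate measure of leukocytes. Whether leukocytes contributed was not tested. None of the 6 was called without ciliated replicate 2, and 3 were without ciliated replicate 1 or club replicate 2.

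Among chaperones and heat-shock genes 5 of 31 were higher (16.1%, against 9.28% of all genes) and 3 lower (9.68%, against 9.03%), and 1 was lower without either ciliated array. Hsph1 stood at 11.46 and 11.27 on the ciliated arrays, at 9.05 and 8.84 on the basal arrays and at 10.19 and 9.98 on the club arrays (1.85 ± 0.15, limma adjusted p = 0.000139), in the order ciliated, club, basal. Dnaja4 (1.54 ± 0.15), Hspa4l (1.67 ± 0.22) and Hspa2 (1.68 ± 0.30) were higher too, and Hspa2 was not called without ciliated replicate 2. The lists of energy metabolism are set beside the same 9.28% higher and 9.03% lower of all genes. Of 41 oxidative phosphorylation genes none was higher and 1 was lower (2.44%), Ndufa5 (-0.78 ± 0.21, limma adjusted p = 0.0394). Ndufa5 was uncalled when any ciliated or club array was dropped. Without basal replicate 2, 3 oxidative phosphorylation genes were higher. Of 19 glycolysis genes 2 were higher (10.5%) and 3 lower (15.8%), and 0 were lower without either ciliated array and 1 without club replicate 2. Slc16a3, a lactate exporter, stood at 8.95 and 8.96 on the ciliated arrays, at 6.88 and 6.51 on the basal arrays and at 6.40 and 6.56 on the club arrays (2.37 ± 0.15, adjusted p = 4.46e-05), and Ldhb, a lactate dehydrogenase subunit, was higher by 1.67 ± 0.28 and not called without ciliated replicate 2. Among amino acid transport and tRNA synthetase genes 2 of 32 were higher (6.25%) and 4 lower (12.5%), near the shares of all genes. Without either ciliated array 1 was higher and 2 were lower, and without club replicate 1 the counts were 1 and 8. The list includes the neutral amino acid carrier gene Slc1a4, at 10.56 and 10.56 in ciliated cells against 7.17 to 9.07 on the others. Psat1, an enzyme of serine synthesis, was at 7.15 and 7.59 against 8.41 to 9.23 (-1.58 ± 0.23, adjusted p = 0.00298). Of 10 goblet cell markers limma called none against the mean of basal and club cells, 2 lower without basal replicate 2 or club replicate 1, and 1 lower with quantile normalization, median centring, dim genes left out or an intensity trend. Muc5ac, a gel-forming mucin, differed from club cells by -1.86 ± 0.26 (adjusted p = 0.0025) and from basal cells by 0.41 ± 0.26 (adjusted p = 0.378).

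In further lists called members went both ways. Of 21 annexins and S100 proteins 3 were higher (14.3%) and 4 lower (19.0%), against 9.28% and 9.03% of all genes, with S100a14 at 6.33 and 6.14 in ciliated cells against 7.62 to 9.35 on the others (-2.14 ± 0.26, limma adjusted p = 0.00118) and Anxa11 at 11.75 and 11.75 against 10.25 to 10.90. Anxa11 was not called without either ciliated array, which left 0 or 1 higher members. Of 26 YAP and TEAD genes and targets 6 were lower (23.1%, against 9.03% of all genes) and 1 higher (3.85%, against 9.28%). Fewer were lower without ciliated replicate 2, and more were higher without basal replicate 1. Myof, myoferlin, was at 9.74 and 9.04 in ciliated cells against 10.75 to 11.64 on the others (-1.87 ± 0.23). Axl, a receptor kinase, differed from basal cells by -3.72 ± 0.19 and from club cells by -0.21 ± 0.19 (limma adjusted p = 0.549). Of 32 secretory pathway genes 3 were higher (9.38%) and 4 lower (12.5%), close to the shares of all genes, with the coat protein gene Sec24a highest in club cells at 10.65 and 10.49 and at 8.40 and 8.54 in ciliated cells. It was not called without ciliated replicate 1, no member was higher without either ciliated array, 1 was higher without either club array or with an intensity trend, and quantile normalization applied again gave 1 higher and 7 lower. Of 24 immediate early genes, which many stimuli switch on quickly, 1 was higher (4.17%, against 9.28% of all genes) and none lower. The basal replicates of Egr2 and Egr3 lay far apart, at 12.04 and 9.61 and at 9.77 and 7.56. In ciliated cells they were at 11.70 and 12.42 and at 10.05 and 10.98. Without basal replicate 1 the list had 5 higher members, and without basal replicate 2 it had 4 lower. With basal and club cells as 1 group, Oas2, Ddx58, H2-Aa, Ldhb, Ndufa5, Axl and Sec24a were not called, and the lists had 3 higher interferon-stimulated genes, 0 lower genes of antigen presentation and 2 lower YAP and TEAD genes.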
